A study of Mus musculus with 6 samples.

Results

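The genes described here build, cross-link, cut and protect the extracellular matrix of the mouse heart. They were chosen by symbol among protein-coding genes: collagen chains, laminins, elastin with the fibrillins and fibulins, lysyl oxidases, fibronectin, thrombospondins, small proteoglycans and related glycoproteins, the matrix metalloproteinases (Mmp), the membrane-bound Adam and secreted Adamts proteases, their Timp inhibitors, and serpins of clades E and H. Of 8969 protein-coding genes in the table, 79 matched, with 101 transcripts. RNA came from 6 hearts of male mice, each isolated and perfused through its coronary vessels on a Langendorff apparatus. Contraction was left running in the 3 Sham hearts. In the 3 I/R (ischaemia and reperfusion) hearts Tomas cardioplegia, a solution that stops the beat, was applied for 30 min, and the hearts were then reperfused for 1 h. The labels call the hearts of a group biological replicates, and strain, age and genotype were not stated. An isolated heart is cut off from the animal's circulation, which limits it as a model.

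Cardiac matrix is made mostly by fibroblasts. Fibrillar collagens form the cables that bear tension between muscle bundles, and lysyl oxidases cross-link them and elastin. Basement membranes of laminin and type IV collagen surround cardiomyocytes and vessels. Metalloproteinases cut these proteins, and tissue inhibitors of metalloproteinases hold that cutting in check, a balance known for its part in the remodelling of injured hearts.

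Abundance is given in FPKM, fragments scaled to transcript length and library size, summed over the listed transcripts of a gene. The totals behind these values ran from 7233171 to 9902397 reads per heart, of which the listed protein-coding transcripts held 36.8% to 39.9%. How much of a gene's reads its listed transcripts held is not known, and this bears on each level given here. A clear case is collagen I, whose alpha 1 and alpha 2 chains join in the same molecule. The Col1a1 transcript (5930 bases) had 33639 reads over the 6 hearts, while the only Col1a2 transcript listed (850 bases) had 1. Well-known matrix genes such as Timp1, Serpinh1, Postn, Sparc, Thbs1, Spp1, Mmp2, Lox and Col4a2 were not analysed here. Listed matrix transcripts took 1.76% to 2.25% of the reads of all listed protein-coding transcripts in each heart. The tissue label was checked on 11 ventricular cardiomyocyte markers, which summed to between 9695 and 10561 FPKM in every heart, most of it Fabp3. Atrial markers were less even between hearts. In replicates 1, 2 and 3, Myl7 was at 0.342, 43.2 and 115 FPKM in Sham and 0.22, 326 and 10.4 in I/R. Sln had the same order of hearts from replicate to replicate, whereas Nppa and Sbk2 varied less. The part of this in the matrix differences was not tested.

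Comparing I/R with Sham hearts asks which matrix transcripts differ 1 h after a cardioplegic arrest. The fibrillar collagens Col1a1, Col3a1 and Col5a2, the lysyl oxidase-like enzymes Loxl1 and Loxl4, and the proteases Mmp3 and Adamts1 had the smallest unadjusted p of the matrix genes, all with higher means in I/R. None passed the test after adjustment. The test was limma on log2(FPKM + 1), two-sided, with Benjamini-Hochberg adjustment over the 12114 genes whose mean reached 0.5 FPKM. It covered 42 of the 79 matrix genes. Their adjusted p ran from 0.388 to 0.994, so 0 of 42 were called, as were 0 of all genes tested (a background of 0%), of which 1023 had an unadjusted p under 0.05. At an unadjusted p under 0.05, 7 of 42 (16.7%) were higher in I/R, Loxl4, Col1a1, Loxl1, Adamts1, Mmp3, Col5a2 and Col3a1, where the background over 5041 protein-coding genes was 3.43%. In the other direction there were 0, with a background of 1.67%. Applying limma voom to the reads recovered from the FPKM gave 0 genes after adjustment. At an unadjusted p under 0.05 it gave 10 of the 42 matrix genes higher and 0 lower. In that fit 432 of the 5041 protein-coding genes, both directions together, were under 0.05. The count of 7 rested in part on single hearts: it was 3 without Sham replicate 1, 4 without I/R replicate 1 and 4 without I/R replicate 2.

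A difference above 0 was seen for 32 of 42 genes (76.2%, background 54.9%), and the median difference was 0.19 beside 0.02 over all protein-coding genes. Every I/R heart lay above every Sham heart for 9 genes (21.4%, background 8.83%): Col1a1, Col3a1, Col5a2, Col6a1, Lama4, Lamc1, Loxl1, Loxl4 and Mmp3. Every I/R heart lay below every Sham heart for 1 gene, Fbln5 (2.38%, background 5.12%). Several matrix genes varied together across hearts. Shares of genes, here and at an unadjusted p under 0.05, therefore do not count independent genes. Differences are given with their SE on the log2(FPKM + 1) scale, I/R minus Sham, on which low genes (about 1 FPKM or less) look less changed than they are. Values per heart are in the order of replicates 1, 2 and 3, which is only a numbering, and levels with an error are means ± SD (n = 3).

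**Figure D1:**
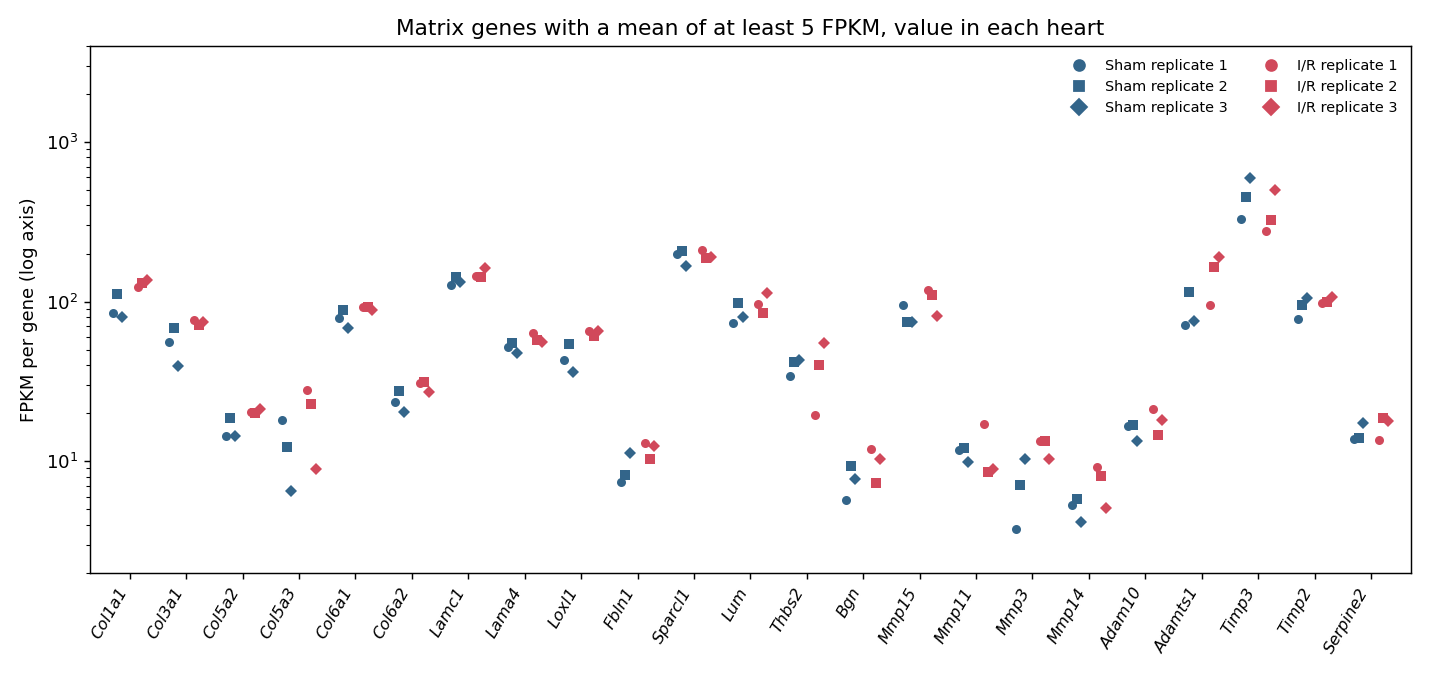
FPKM per gene (log axis) for the matrix genes whose mean reached 5 FPKM, 1 point per heart, with Sham hearts in blue and I/R hearts in red and a marker shape for each replicate number. The red points of Col1a1, Col3a1, Col5a2 and Loxl1 lie above all blue points and close together, whereas those of Adamts1, Col5a3, Thbs2 and Timp3 are spread.

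Markers of the cell types that hold these transcripts differed too, in part. In a bulk sample, fewer cells of a type and less RNA per cell cannot be told apart. Fibroblast markers outside the matrix list (10 in the table, 8 tested) summed to 297 to 549 FPKM in Sham and 453 to 591 in I/R, which overlap, with 6 higher, 2 lower and 0 at an unadjusted p under 0.05 (limma). Most of this sum was Acta2, which smooth muscle also expresses, and dermatopontin (Dpt), at 133, 153 and 168 FPKM in Sham and 164, 172 and 177 in I/R (0.18 ± 0.11). Macrophage markers (6 in the table) summed to 922 to 1104 FPKM in Sham and 1145 to 1239 in I/R, which do not overlap. Most of this sum was Lyz2, whose own groups overlapped. For 2 of the 6, C1qb and Cd14, every I/R heart lay above every Sham heart (background 8.83%). Cd14 was at 26.6, 30.9 and 26.9 FPKM in Sham and 58.1, 63.9 and 35.0 in I/R. Its difference was 0.83 ± 0.23 (limma, unadjusted p = 0.00874, adjusted p = 0.442). Epicardial and mesothelial markers (6 in the table) summed to 5.24 to 6.76 and 7.44 to 11.6 FPKM, also without overlap. That gap came from Aldh1a2, the only 1 of the 6 tested, at 4.24, 5.36 and 4.15 FPKM in Sham and 11.3, 5.76 and 7.17 in I/R, while the other 5 were below 1 FPKM in every heart. Endothelial markers (5 in the table) summed to 104 to 128 and 119 to 151 FPKM, nearly all of it Kdr. Tie1 went the other way, at 2.73, 2.31 and 2.68 FPKM in Sham and 1.79, 1.14 and 1.12 in I/R (−0.61 ± 0.20; limma, unadjusted p = 0.0207, adjusted p = 0.501). Smooth muscle and pericyte markers overlapped, at 810 to 1064 and 795 to 1131 FPKM. Of the 11 ventricular markers 8 lay below 0, with a median of −0.33, and phospholamban (Pln) was at 131, 99.4 and 120 FPKM in Sham and 84.3, 61.0 and 59.3 in I/R. Neutrophil markers were near 0, with 3 in the table and sums of 0 to 1.02 and 0.564 to 1.73 FPKM. The part of these cell types in the matrix differences was not tested.

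Start regions of 4 of the 7 genes with an unadjusted p under 0.05 are shown, so that the sequence before their start sites can be read beside their values. They are the 250 bases before the RefSeq start site (GRCm38.p6), printed 5′ to 3′ on the gene's strand. Capitals mark matches, on either strand, to the AP-1 motif TGANTCA, the SMAD motif CAGACA or the TATA motif TATAAA. The region of Mmp3 is chr9:7445572-7445821 on the plus strand, that of Col3a1 chr1:45311288-45311537 on the plus strand, that of Adamts1 chr16:85803114-85803363 on the minus strand and that of Loxl4 chr19:42612807-42613056 on the minus strand.
Mmp3: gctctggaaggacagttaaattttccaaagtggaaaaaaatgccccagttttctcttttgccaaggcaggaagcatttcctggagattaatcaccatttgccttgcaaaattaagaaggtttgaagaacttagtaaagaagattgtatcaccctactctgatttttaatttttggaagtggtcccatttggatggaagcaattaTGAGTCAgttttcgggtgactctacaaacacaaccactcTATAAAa
Col3a1: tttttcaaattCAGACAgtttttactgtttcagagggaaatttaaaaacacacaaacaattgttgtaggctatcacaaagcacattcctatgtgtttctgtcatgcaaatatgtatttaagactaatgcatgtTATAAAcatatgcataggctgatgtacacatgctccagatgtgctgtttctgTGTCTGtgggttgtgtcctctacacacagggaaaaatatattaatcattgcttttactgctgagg
Adamts1: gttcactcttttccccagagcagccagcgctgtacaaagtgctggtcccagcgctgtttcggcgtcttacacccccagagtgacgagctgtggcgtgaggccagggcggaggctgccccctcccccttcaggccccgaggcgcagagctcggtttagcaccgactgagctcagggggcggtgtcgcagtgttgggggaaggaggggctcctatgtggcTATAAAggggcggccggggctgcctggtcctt
Loxl4: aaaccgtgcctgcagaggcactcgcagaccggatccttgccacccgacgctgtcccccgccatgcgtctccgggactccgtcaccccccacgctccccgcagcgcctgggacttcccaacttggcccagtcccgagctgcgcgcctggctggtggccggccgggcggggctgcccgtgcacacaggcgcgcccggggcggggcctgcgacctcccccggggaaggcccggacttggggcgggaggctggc
The Mmp3 region held an AP-1 match that began 46 bases before the start site and a TATA match 7 bases before it. The Col3a1 region had SMAD matches beginning 239 and 65 bases before the start site and a TATA match at 117, the Adamts1 region a TATA match at 32, and in the Loxl4 region none of the 3 motifs was found. Over whole windows (250 bases before to 50 after a start site), AP-1 was found in 3 of 51 matrix genes with a window (5.88%) and in 7.81% of all 32851 windows. SMAD was found in 11 of 51 (21.6%) and 21% of all windows, and TATA in 5 of 51 (9.8%) and 13.6%. These shares in the matrix genes lay close to or below those of all windows, and a match is a description of the letters only.

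Fibrillar collagens were the role group with the largest median difference, 0.49 over the 4 genes tested of 7, with all 4 above 0. Without Sham replicate 3 that median was 0.28. Summed over the 7 chains they held 174, 211 and 141 FPKM in the Sham hearts and 248, 245 and 242 in the I/R hearts. The I/R hearts thus sat within a narrow band above a wider Sham range. The sum was mostly Col1a1 and Col3a1.

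Col1a1 (ENSMUSG00000001506, GRCm38 chromosome 11, 94936224 to 94953042), the main chain of the thick collagen I fibres, was at 84.7, 112 and 79.9 FPKM in Sham and 123, 130 and 137 in I/R. All I/R hearts were above all Sham hearts, and the I/R hearts were also the tighter group, 130.1 ± 6.71 against 92.1 ± 17.1. The difference was 0.51 ± 0.14 (limma, unadjusted p = 0.00941, adjusted p = 0.45) and lay between 0.41 and 0.65 with any 1 heart left out. Col3a1 (ENSMUSG00000026043, chromosome 1, 45311538 to 45349706), which forms the finer, more pliable collagen III fibres, was at 56.1, 67.9 and 39.6 FPKM in Sham and 76.2, 71.8 and 74.3 in I/R. Again the groups did not overlap, and Sham replicate 3 stood lowest. Its difference of 0.47 ± 0.19 (limma, unadjusted p = 0.0465, adjusted p = 0.587) was 0.26 without Sham replicate 3. The unadjusted p was 0.0106 without Sham replicate 2 and 0.0747 to 0.102 with any other heart left out (limma).

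Col5a2 (chromosome 1, 45374321 to 45503282) encodes a chain of the collagen V that sets the diameter of collagen I fibres. It lies on the opposite strand to Col3a1, with 24614 bases between the 3′ ends of these genes. It was at 14.4, 18.6 and 14.4 FPKM in Sham and 20.3, 19.9 and 21.3 in I/R, also without overlap (0.36 ± 0.15; limma, unadjusted p = 0.045, adjusted p = 0.586). Its unadjusted p was 0.0174 without Sham replicate 2 and 0.0773 to 0.125 with any other heart left out (limma). Within each heart the ratio of Col3a1 to Col5a2 stayed between 3.5 and 3.9 except in Sham replicate 3, where it was 2.74. Col5a3, another collagen V chain, behaved unlike these 3 genes. It was at 18.1, 12.2 and 6.46 FPKM in Sham and 27.8, 23.0 and 8.98 in I/R. Its I/R replicate 3 lay below Sham replicates 1 and 2, and the difference was 0.62 ± 0.49 (limma, adjusted p = 0.784), with a range of 0.26 to 1.09 when 1 heart was left out. The ratio of Col5a3 to Col5a2 spanned 0.422 to 1.37 over the hearts.

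The remaining fibrillar chains were below the filter. Col27a1 had 86 reads over the 6 hearts and between 0.123 and 0.291 FPKM in each. Col5a1 had 11 reads and Col1a2 had 1.

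Among collagens that are neither fibrillar nor of basement membranes, collagen VI, which forms beaded filaments beside the cell surface, was the abundant one. Col6a1 (chromosome 10, 76708792 to 76726168) was at 79.4, 87.9 and 68.6 FPKM in Sham and 92.5, 92.4 and 88.7 in I/R, without overlap (0.22 ± 0.12; limma, adjusted p = 0.664). Its neighbour Col6a2, 85161 bases away, was at 23.4, 27.6 and 20.2 FPKM in Sham and 31.0, 31.2 and 27.0 in I/R (0.32 ± 0.15; limma, adjusted p = 0.616). For Col6a2 the lowest I/R heart was just under the highest Sham heart. The ratio of the 2 chains stayed between 2.96 and 3.4 in all hearts.

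Col23a1 (0.14 ± 0.19), Col8a2 (0.03 ± 0.27) and Col28a1 (−0.08 ± 0.19) were each within 0.39 to 1.33 FPKM in every heart, and their differences were smaller than their SE. The role group had a median of 0.14 over 5 genes tested of 10. Below the filter, Col16a1 had 1 read in Sham against 9 in I/R, and Col12a1, Col25a1, Col6a6 and Col9a2 had 9 to 86 reads over the 6 hearts.

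Basement membrane genes differed less. All 5 tested of 11 were above 0, with a median of 0.21 and a range of 0.16 to 0.36, and 0 of them had an unadjusted p under 0.05 (limma). Lamc1 (ENSMUSG00000026478, chromosome 1, 153218922 to 153332786) encodes the gamma 1 chain shared by most laminins and was at 127, 142 and 133 FPKM in Sham and 144, 142 and 162 in I/R. Lama4, the alpha chain of laminins around vessels and cardiomyocytes, was at 52.1, 55.0 and 47.6 FPKM in Sham and 63.2, 57.5 and 55.8 in I/R. Neither gene's groups overlapped, but for Lamc1 the highest Sham and lowest I/R hearts were nearly level. The differences were 0.16 ± 0.10 and 0.19 ± 0.11 (limma, adjusted p = 0.722 and 0.704), resting on 55165 and 17075 reads.

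Other basement membrane genes were thinly covered. The listed Col4a1 transcript has 545 bases and had 58 reads over the hearts (0.21 ± 0.32). Col15a1, whose collagen XV sits at the outer face of basement membranes, was at 1.10, 0.83 and 0.567 FPKM in Sham and 2.54, 0.855 and 0.944 in I/R, so that I/R replicate 1 alone stood out (0.36 ± 0.30). Without that heart its difference was 0.06. With no filter on low values the group median over all 11 genes was 0.07, and without Sham replicate 1 it was 0.33.

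Of the lysyl oxidase-like enzymes, 2 were tested, Loxl1 and Loxl4. Loxl1 (ENSMUSG00000032334, chromosome 9, 58287738 to 58313186), needed for elastic fibre assembly, was at 43.2, 54.4 and 36.4 FPKM in Sham and 65.3, 60.6 and 65.6 in I/R. Its hearts did not overlap, and its order in the Sham hearts was that of Col1a1 and Col3a1, with replicate 2 highest and replicate 3 lowest. The difference was 0.52 ± 0.16 (limma, unadjusted p = 0.013, adjusted p = 0.468) and 0.39 to 0.67 with any heart left out. The ratio of Loxl1 to Col1a1 lay between 0.456 and 0.529 in all 6 hearts.

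Loxl4 (ENSMUSG00000025185, chromosome 19, 42593982 to 42612813) was at 0.57, 0.792 and 0.834 FPKM in Sham and 1.77, 2.01 and 1.98 in I/R, 2.62-fold by the group means (0.75 ± 0.19; limma, unadjusted p = 0.00514, adjusted p = 0.388). The groups lay far apart, yet the reads were few, 50 in Sham and 81 in I/R, and limma voom on them gave an unadjusted p of 0.0378, where Col1a1 had 0.00131. Most of the gap came from a listed transcript of 570 bases with 2, 1 and 1 reads in Sham and 5, 7 and 5 in I/R. Its transcript of 3738 bases was at 0.216, 0.61 and 0.592 FPKM in Sham and 0.626, 0.632 and 0.854 in I/R, where the groups nearly met.

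Elastic fibre genes lay on both sides of 0. Fbln1 was at 7.37, 8.19 and 11.2 FPKM in Sham and 13.0, 10.3 and 12.4 in I/R (0.39 ± 0.20). Fbln5, a fibulin that binds elastin to cells, was at 0.999, 0.85 and 1.24 FPKM in Sham and 0.623, 0.712 and 0.59 in I/R (−0.30 ± 0.19). It was the sole tested matrix gene with all I/R hearts below all Sham hearts. Fbln2 (−0.43 ± 0.48) took 2 levels over the hearts, 5.34 to 5.38 FPKM in Sham replicates 2 and 3 and I/R replicate 3 and 1.58 to 1.69 in the others. It had 188 reads in all, and transcripts of 477 and 377 bases gave most of its FPKM. Fbn2 (0.42 ± 0.32) was at 2.74 and 3.51 FPKM in I/R replicates 1 and 2 and at 1.04 to 1.62 in the other 4 hearts. Elastin itself had 20 reads. These genes outside Loxl1 and Loxl4, like other examples beyond the 2 smallest p per role group and a fixed list, were picked after their values were seen.

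**Figure D2:**
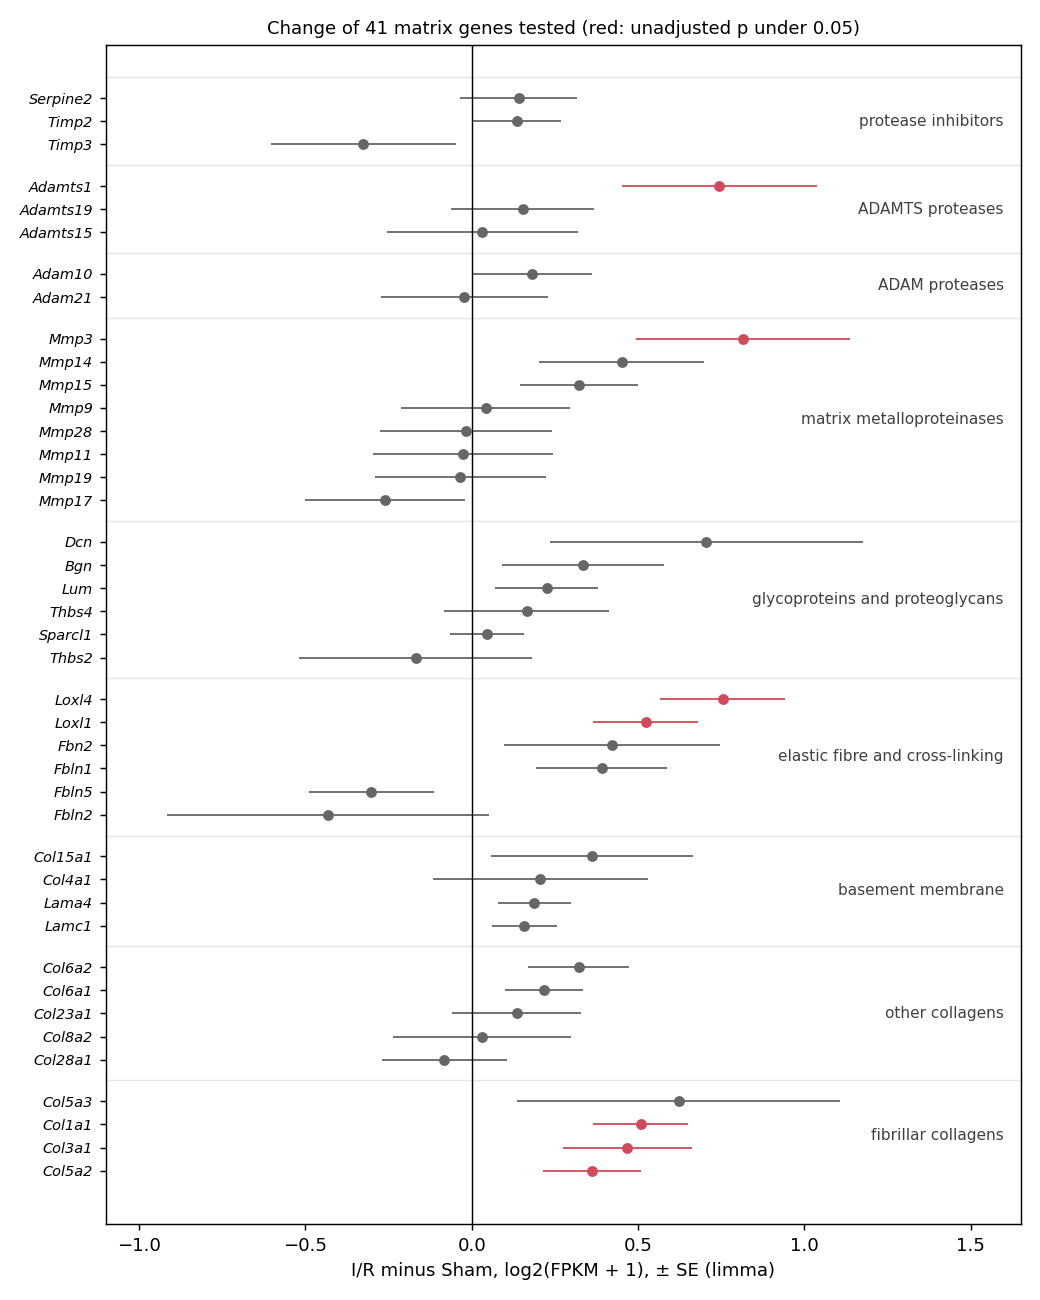
Difference between I/R and Sham hearts in log2(FPKM + 1) with its SE (horizontal axis) for 41 of the 42 matrix genes tested, grouped by role, with the 7 at an unadjusted p under 0.05 in red. The 4 fibrillar collagens and the 4 basement membrane genes drawn all lie right of 0, while metalloproteinases lie on both sides.

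Of the glycoproteins and small proteoglycans, 6 of 8 were tested, with a median of 0.20, 0 at an unadjusted p under 0.05 (limma) and 0 without overlap. Lumican (Lum), which spaces collagen fibrils, was at 73.3, 98.4 and 80.5 FPKM in Sham and 96.6, 85.2 and 113 in I/R (0.23 ± 0.15). Biglycan (Bgn), a proteoglycan of similar function, was at 5.68, 9.35 and 7.72 FPKM in Sham and 11.8, 7.29 and 10.4 in I/R (0.33 ± 0.24). Both were lowest in Sham replicate 1 and had I/R replicate 2 inside the Sham range.

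Decorin (Dcn) was at 1.71, 2.86 and 2.18 FPKM in Sham and 9.8, 1.9 and 3.59 in I/R. These values rest on 51 reads, nearly all from a transcript of 254 bases, and the difference of 0.71 ± 0.47 was 0.18 without I/R replicate 1. Sparcl1, a secreted SPARC relative and the second most abundant matrix gene here, was level at 191.1 ± 21.6 and 196.8 ± 12.0 FPKM (0.05 ± 0.11). Thbs2, a thrombospondin of fibroblasts, ranged from 19.3 FPKM in I/R replicate 1 to 54.9 in I/R replicate 3, while Sham hearts lay at 34.3 to 42.8 (−0.17 ± 0.35). Its sign turned to 0.24 without I/R replicate 1. Thbs4 differed by 0.17 ± 0.25.

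Fibronectin (Fn1) and tenascin C (Tnc), both known as early matrix proteins of wounds, were below the filter. Fn1 had 32 reads in Sham against 71 in I/R, at 0.21, 0.303 and 0.354 against 0.349, 0.597 and 0.466 FPKM, so the lowest I/R heart fell just inside the Sham range. Tnc had 1 read in Sham and 6 in I/R.

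Proteases formed the largest role group, 30 genes, of which 13 were tested. Their median difference was 0.04, near the 0.02 of all protein-coding genes, with 8 above 0 and 5 below. It depended on the scale, with 0.19 at a pseudocount of 0.1 FPKM, and lay between 0.09 and 0.22 with any 1 heart left out, highest without Sham replicate 1. Adamts1 and Mmp3 were the 2 with an unadjusted p under 0.05.

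Mmp3 (ENSMUSG00000043613, chromosome 9, 7445822 to 7455975), stromelysin 1, cuts proteoglycans, laminin and fibronectin and activates other metalloproteinases. It was at 3.76, 7.08 and 10.3 FPKM in Sham and 13.4, 13.4 and 10.4 in I/R. No Sham heart reached the I/R range, although Sham replicate 3 and I/R replicate 3 were almost equal, with 134 and 146 reads. The difference was 0.82 ± 0.32 (limma, unadjusted p = 0.0397, adjusted p = 0.564), and ran from 0.48 without Sham replicate 1, the lowest heart, to 1.10 without Sham replicate 3. Leaving out Sham replicate 1 or 2, or I/R replicate 1 or 2, put the unadjusted p at 0.0705 to 0.102 (limma). Mmp12 and Mmp27, its neighbours within 115420 bases, had 3 and 4 reads over all hearts.

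Adamts1 (ENSMUSG00000022893, chromosome 16, 85793827 to 85803113) encodes a secreted protease of the proteoglycans aggrecan and versican and had the highest mean level of the proteases, although Mmp15 was higher in Sham replicate 1 and I/R replicate 1. It was at 71.8, 115 and 75.8 FPKM in Sham and 95.5, 164 and 190 in I/R. I/R replicate 1 lay inside the Sham range, while the other I/R hearts were well above it. The difference was 0.75 ± 0.29 (limma, unadjusted p = 0.0388, adjusted p = 0.562). It lay between 0.55 (without I/R replicate 3) and 1.04 (without I/R replicate 1) with 1 heart left out, and the unadjusted p was above 0.05 in 4 of these 6 fits, at 0.111 to 0.124. Both listed transcripts had this pattern, the one of 4884 bases from 66.0, 106 and 68.6 to 86.7, 148 and 172 FPKM and the one of 2338 bases from 5.79, 9.05 and 7.21 to 8.84, 16.9 and 18.03.

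Mmp14, the membrane protease that activates Mmp2, was at 5.34, 5.75 and 4.18 FPKM in Sham and 9.24, 8.1 and 5.08 in I/R (0.45 ± 0.25; limma, adjusted p = 0.67). Mmp15, a close relative, was at 95.5, 74.1 and 74.9 FPKM in Sham and 118, 109 and 80.8 in I/R (0.32 ± 0.18; adjusted p = 0.669). In both genes I/R replicates 1 and 2 lay above all Sham hearts and I/R replicate 3 within the Sham range. Mmp17, held at the membrane by a lipid anchor, differed by −0.26 ± 0.24.

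Mmp11 (−0.03 ± 0.27), Mmp19 (−0.03 ± 0.26), Mmp28 (−0.02 ± 0.26) and Mmp9 (0.04 ± 0.25) had differences far below their SE. Mmp9, the gelatinase of leukocytes, had 77 reads over the hearts and 0.098 to 0.871 FPKM in Sham against 0.41 to 0.708 in I/R. Of the proteases that shed proteins from the cell surface, Adam10, which cleaves Notch, was at 16.6, 17.0 and 13.4 FPKM in Sham and 21.1, 14.7 and 18.2 in I/R (0.18 ± 0.18), and Adam21 differed by −0.02 ± 0.25. Adamts19 differed by 0.15 ± 0.22. Adamts15 (0.03 ± 0.29) had 135 reads in Sham against 88 in I/R, and its sign turned to −0.59 with limma voom on the reads. Its listed transcript of 354 bases, with few reads, gave most of its FPKM in all hearts but Sham replicate 3.

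Several proteases below the filter had more reads in I/R. Adam12 had 13, 19 and 9 reads in Sham and 27, 25 and 20 in I/R, with 0.162 to 0.257 FPKM against 0.333 to 0.457 and no overlap. Adamts4, another aggrecan-cutting protease, had 12 reads in Sham against 40 in I/R, at 0.054, 0.248 and 0.037 against 0.311, 0.717 and 0.238 FPKM, where the groups overlapped slightly. Adamts8 had 26 and 51 reads. Others had fewer in I/R, such as Adamts13 with 13 and 0 and Mmp24 with 19 and 10. Of all 79 matrix genes, 37 were below the filter, and 12 of these had under 10 reads over the 6 hearts, too few for a difference to be detectable at this depth.

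Inhibitors were led by Timp3 (ENSMUSG00000020044, chromosome 10, 86300372 to 86349506), a TIMP that binds to the matrix and also blocks Adam and Adamts proteases. With a mean of 413 FPKM and 85328 reads it was the most abundant of the 79 genes in every heart. It was at 329, 453 and 596 FPKM in Sham and 278, 324 and 500 in I/R. Both groups overlapped widely and the difference was −0.33 ± 0.28 (limma, adjusted p = 0.81). It was −0.12 without Sham replicate 3, −0.15 without I/R replicate 1, −0.57 without I/R replicate 3 and −0.54 without Sham replicate 1. Timp2 was at 77.8, 94.8 and 106 FPKM in Sham and 97.4, 99.5 and 107 in I/R (0.14 ± 0.13). Serpine2, which inhibits thrombin and plasminogen activators, differed by 0.14 ± 0.18, and Timp4 had 11 reads. In RefSeq, Timp3 overlaps Syn3, Timp4 overlaps Syn2 and Timp2 overlaps Cep295nl. Mmp11, Mmp12, Mmp19, Mmp24, Mmp25, Mmp28, Adam1b, Adamts4 and Col4a1 each overlap another protein-coding gene as well. Some reads of all these genes could belong to a neighbour.

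Set against Adamts1 and Mmp3 alone within each heart, the ratio of Timp3 to Adamts1 was 4.59, 3.93 and 7.87 in the Sham hearts against 2.91, 1.97 and 2.63 after I/R. That of Timp3 to Mmp3 was 87.6, 63.9 and 58 in the Sham hearts against 20.7, 24.2 and 48.3 after I/R. Both ratios were lower in every I/R heart than in any Sham heart. These pairs were chosen after their values were seen and were not tested. Adamts1 and Mmp3 were the proteases already picked for a small p and a higher mean in I/R, which by itself lowers such a ratio. Ratios of Timp3 to other proteases are not given, so these values do not describe inhibitors against proteases in general. The ratio of Timp3 to Timp2 overlapped between groups, at 4.23 to 5.63 and 2.85 to 4.67.

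**Figure D3:**
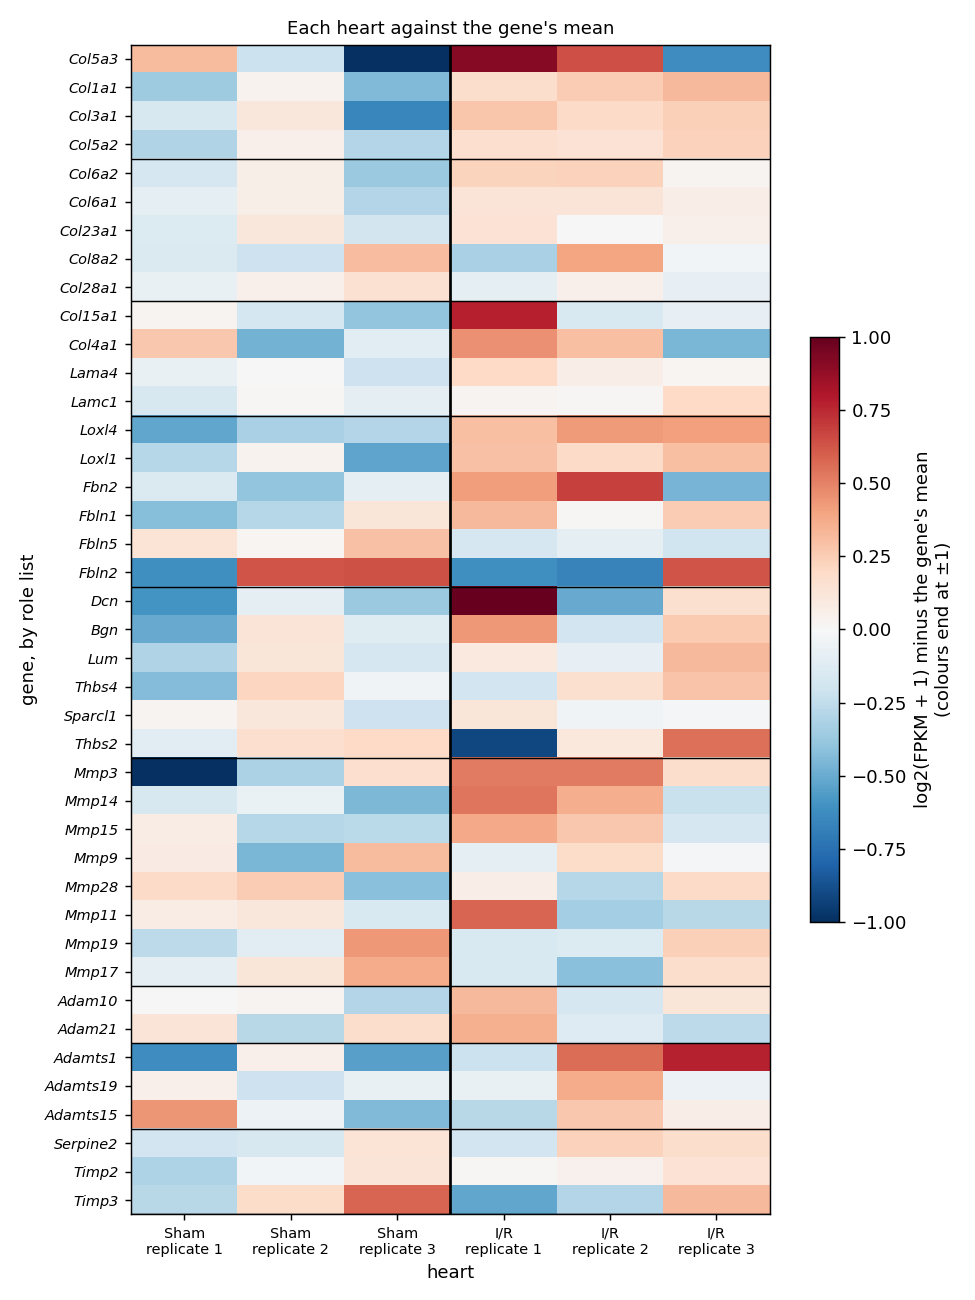
Deviation of each heart (columns, Sham left and I/R right of the thick line) from the gene's mean in log2(FPKM + 1), in red above and blue below it, for 41 of the 42 matrix genes tested (rows, by role list). Most fibrillar collagen, collagen VI and Loxl1 cells are blue in Sham replicates 1 and 3 and red in all I/R hearts, and Timp3 runs the other way in Sham replicate 3 and I/R replicate 1.

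No single order of hearts held for all matrix genes, but some varied together. Among the Sham hearts, Col1a1, Col3a1, Loxl1, Col6a1 and Col6a2 were all highest in replicate 2 and lowest in replicate 3. Sham replicates 3 and 1 were the lowest heart for 15 and 12 of the 42 genes (35.7% and 28.6%), where they were lowest for 19.9% and 19.8% of all protein-coding genes. I/R replicate 1 was the highest heart for 17 (40.5%, against 27.5% of all genes). The median deviation of the 42 genes from their means was −0.14, 0.02 and −0.16 in the Sham hearts against 0.14, 0.08 and 0.16 after I/R, so Sham replicate 2 lay nearer to the I/R hearts than the other Sham hearts did. Over all protein-coding genes the same medians ran from −0.02 to 0.05.

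Col5a3, Mmp15 and Col4a1 shared another order, with I/R replicate 1 highest, then I/R replicate 2, then Sham replicate 1. This order was held by 3 of 42 matrix genes (7.14%) and 90 of 5041 protein-coding genes (1.79%), and it was picked out after the values were seen. Kdr, the endothelial receptor for vascular endothelial growth factor, had it too, at 119, 97.1 and 91.3 FPKM in Sham and 141, 138 and 109 in I/R. Kdr was the only listed endothelial marker with this order, which Tie1, Egfl7, Fabp4 and Vwf all lacked. Tie1 and Egfl7 peaked in Sham replicate 1, Vwf in Sham replicate 3 and Fabp4 in I/R replicate 3. Whether the endothelial share of each heart had a part in Col5a3, Mmp15 and Col4a1 was not tested.

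**Figure D4:**
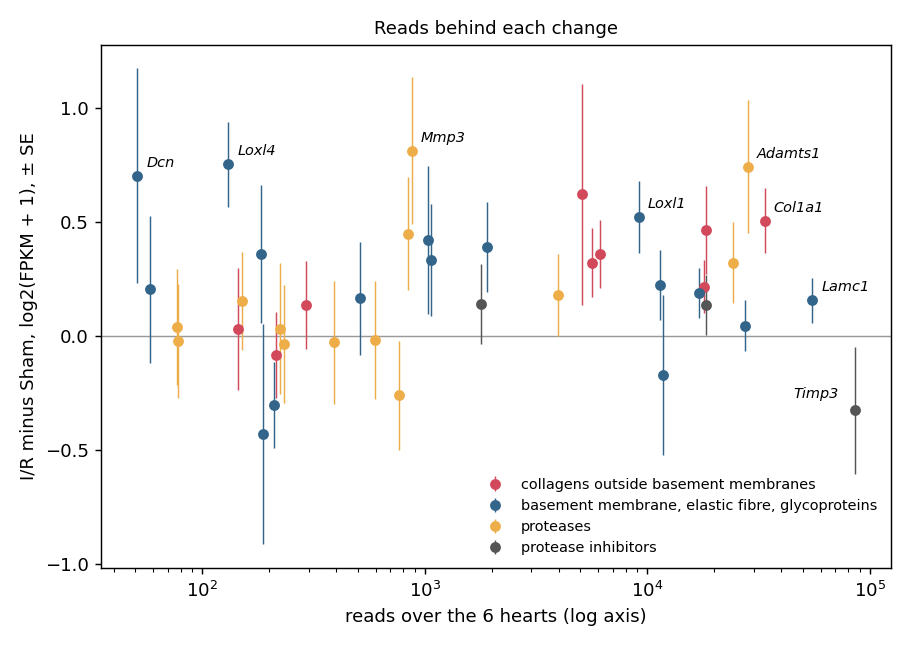
Difference between I/R and Sham in log2(FPKM + 1) with its SE (vertical axis) against the reads of 41 of the 42 tested matrix genes over the 6 hearts (log axis), coloured by class. Loxl4 and Dcn have among the largest differences and few reads (131 and 51), while Col1a1, Adamts1 and Timp3 have 33639, 28171 and 85328.

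Lists of pathway genes outside the matrix list differed from one another. All protein-coding genes tested had a median of 0.02, with 54.9% above 0. Of the pathway lists, 14 collagen enzymes, 14 other matrix proteins and 8 TGF-beta genes were not analysed. Of enzymes that hydroxylate, fold or trim collagen, 8 were tested, 4 above and 4 below 0, with a median of 0.02 and 0 at an unadjusted p under 0.05 (limma). The lysyl hydroxylase gene Plod3 had the smallest p of them and was at 0.827, 0.173 and 1.15 FPKM in Sham and 1.46, 1.5 and 1.53 in I/R (0.58 ± 0.27), with 15 reads in Sham and 26 in I/R. Furin, a protease that activates proproteins, differed by 0.46 ± 0.33, and Fkbp10, a collagen-folding protein, by −0.26 ± 0.20.

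Other matrix proteins (7 tested, all above 0, median 0.14) included Mgp, an inhibitor of calcification, at 259.6, 533.5 and 510.9 FPKM in Sham and 462, 492 and 669 in I/R. Prelp, a collagen-binding proteoglycan, differed by 0.25 ± 0.17 and Smoc2 by 0.14 ± 0.12. Integrins, the cell's matrix receptors, numbered 7 above and 3 below 0 of 10 tested (median 0.16). Itga9, a tenascin receptor chain, was at 42.3, 49.8 and 42.1 FPKM in Sham and 59.4, 52.7 and 46.8 in I/R.

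TGF-beta signalling, the main known inducer of collagen genes, had a median of 0.03 over 13 genes tested, with 7 above and 6 below 0. Only Bambi, a decoy receptor of the pathway, had an unadjusted p under 0.05, at 8.52, 9.49 and 9.3 FPKM in Sham and 11.2, 16.6 and 13.1 in I/R (0.52 ± 0.18; limma, adjusted p = 0.506). Its feedback inhibitor Smad7 was at 5.78, 4.99 and 5.03 FPKM in Sham and 2.37, 3.22 and 5.32 in I/R. Pmepa1, another inhibitor of the pathway, differed by 0.44 ± 0.34. A list drawn up for the plasminogen system and other inhibitors had 4 genes tested, Serping1, A2m, Sfrp1 and Sfrp2. Plasminogen and its activators were not among them, so that system was not measured here. The median of the 4 was 0.31, with 3 above and 1 below 0. Serping1, the inhibitor of complement C1, was at 0.39 ± 0.26, and A2m was the gene below 0, at −0.33 ± 0.47.

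At 20 of the 79 loci, 27 long non-coding RNAs (lncRNAs) of the table overlap the matrix gene's span. Such partners can share reads on either strand. Counting by strand, which the labels do not state, would separate only partners on the opposite strand. Totals were recovered from protein-coding rows only, so lncRNA FPKM need not be on the scale of protein-coding FPKM. The main fit took both kinds together, with the same filter and variance trend. With protein-coding genes alone, 8 matrix genes were higher and 0 lower at an unadjusted p under 0.05, and the smallest adjusted p was 0.235 (limma). Of 23 overlapping lncRNAs tested, 4 were higher (background 4.81% of lncRNAs) and 1 lower (6.02%) at an unadjusted p under 0.05, and 0 passed the adjustment (limma).

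Inside Col5a2 on the same strand, Gm38211 was at 8.24, 8.64 and 6.43 FPKM in Sham and 18.1, 13.2 and 12.0 in I/R (0.80 ± 0.20; limma, adjusted p = 0.411), without overlap, as for Col5a2. Opposite Col5a1, whose listed transcript had 11 reads, 2810430I11Rik was at 18.1, 24.1 and 19.2 FPKM in Sham and 33.7, 36.0 and 29.9 in I/R (0.68 ± 0.15; adjusted p = 0.386). Within Col4a1, Gm44716 on the same strand was at 55.0, 26.5 and 25.0 FPKM in Sham and 77.6, 74.8 and 46.1 in I/R (0.94 ± 0.34). Its 3 highest hearts came in the order of Col4a1 and Kdr. Gm30003, opposite elastin, differed by 0.58 ± 0.20, and Gm38314, opposite Col6a6, by −0.77 ± 0.25.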

How the data were processed

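The authors deposited FPKM per transcript for 6 hearts, per the file headers and the labels. Libraries came from poly(A)-selected RNA (NEBNext Ultra II), per the labels' protocols. Tools in the submitters' processing notes, listed without roles, are HTSeq 0.10.0, HISAT2 2.1.0, fastp 0.23.0 and bcl2fastq 2.19.1.403, and the builds listed are mm10, GRCm38 and GRCm39. No source used here names the annotation.

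Of 21198 rows, 40 repeated a transcript and were dropped. FPKM were summed per gene, and those whose mean reached 0.5 FPKM (5041 protein-coding, 7073 lncRNAs) were fitted as log2(FPKM + 1) in limma 3.58.1 (R 4.3.3) with a variance trend, group as the only factor and Benjamini-Hochberg adjustment. Whole reads were recovered from the steps of the FPKM for 11745 of 11745 protein-coding rows (tolerance 0.001 reads). The totals were set by genes whose length equals their span. Coordinates are the table's. The spans of 71 of 79 genes overlapped those of RefSeq GRCm38.p6 by at least 90%, and GRCm38 is used. The procedure was tested on simulated data. The differences planted there were larger than those of the matrix genes and lay in well-covered transcripts. That test therefore does not show how small differences or genes with few reads fare. Replicates are hearts numbered in the labels, and p-values measure the spread between these hearts. The values of 1 tested gene are not reported here by name and it is not drawn, but the counts and medians include it. The rule for named genes was the 2 smallest p per role group and 26 fixed symbols, 15 of them in the table. Other genes named were picked as examples after their values were seen. Members, lists and motifs were chosen with earlier results of these data known. Alternatives were another pseudocount, filters, scalings, protein-coding genes alone, no variance trend, a replicate block, the most abundant transcript, limma voom and each heart left out. Python 3.11.15 with pandas 2.3.3, numpy 2.4.6 and matplotlib 3.10.9 was used for tables and plots.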

Additional observations from a re-analysis of the deposited data

How the results depend on the processing

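No matrix gene passed the adjusted threshold under any alternative run. The count at an unadjusted p under 0.05, 7 higher and 0 lower, was 4 higher with no variance trend and ranged from 3 to 8 higher with 1 heart left out. It was 5 higher after quantile normalization and 5 higher after median scaling. With the replicate block it was 5 higher and 1 lower (Timp3). The replicate numbers were not taken as pairs, because same-numbered hearts deviated together with r = 0.153, 0.028 and 0.029 over genes, and not every heart correlated best with its own number. The median of basement membrane genes (0.21) was 0.0701 with no filter, which adds 6 genes with few reads, and 0.136 to 0.328 with 1 heart left out. That of proteases (0.04) was 0.192 at a pseudocount of 0.1 FPKM, 0.183 with a filter at 2 FPKM, 0.153 with the most abundant transcript, 0.176 with limma voom and 0.0888 to 0.216 with 1 heart left out. Apart from the filter, the cause was not tested. Fibrillar collagens kept medians of 0.282 to 0.647 over all alternatives and inhibitors −0.0521 to 0.235. Of the named genes, Adam21 (−0.02) changed sign, to 0.0715 after quantile normalization, and ran from −0.205 to 0.104 over hearts left out, with 0.039 and 0.0618 when Sham replicate 1 or 3 was dropped and 0.0367 and 0.104 when I/R replicate 2 or 3 was. Mmp9 (0.04) changed sign to −0.176 when Sham replicate 2 was dropped and to −0.0382 when I/R replicate 2 was (up to 0.209 otherwise). The other 20 genes tested that the naming rule chose kept their direction. Among further examples in the text, the differences of Adamts15, Col8a2, Mmp11, Mmp19, Mmp28, Sparcl1, Thbs2 and Thbs4 changed sign under at least 1 alternative. For genes with few reads, such as Loxl4, Dcn and Col4a1, depth limits the precision.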
